A study of Mus musculus with 24 samples.

Results

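The genotype by dexamethasone interaction at day 3 asks which responses of CD8+ T cells to the synthetic glucocorticoid dexamethasone (Dex) require their glucocorticoid receptor gene, Nr3c1, and what is left of the response when that gene is deleted. It is the change with Dex in WT cells minus the change with Dex in cKO cells, taken gene by gene on the log2 scale. The rule took the 12 day 3 libraries of the 24 in the study, 3 in each of 4 groups, and 11967 of 23366 genes passed the filter on low counts and were tested. WT cells carried Nr3c1 fl/fl alleles without Cre (E8i-Cre-), so the controls hold the floxed gene too. The cKO cells carried the same alleles with E8i-Cre, a Cre recombinase driven by a CD8-lineage enhancer of the Cd8a locus, so the genotypes differ in Cre as well as in Nr3c1. Both came from C57BL/6 mice. Naive CD8+ T cells, sorted as CD62Lhi CD44- from spleen and lymph nodes, were stimulated for 72 hours on plates coated with anti-CD3 and anti-CD28, both at 1 µg/ml. They were cultured without (Ctrl) or with (Dex) 10 nM dexamethasone. Each library was made from 1000 sorted cells. The WT libraries bear the replicate numbers 1 to 3 and the cKO libraries 4 to 6, each number once in Ctrl and once in Dex. The labels do not say whether they came from separate mice or cultures, so the p-values measure only the spread between these libraries. The main fit did not pair libraries by number.

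The glucocorticoid receptor is a transcription factor that chaperones hold in the cytoplasm until a glucocorticoid binds it. It then enters the nucleus, binds DNA at glucocorticoid response elements and raises genes such as Tsc22d3 and Fkbp5, and it can lower inflammatory genes by acting on AP-1 and NF-kB. In T cells glucocorticoids are best known for lowering cytokine production.

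Levels are given as CPM (counts scaled to the size of the library) after TMM scaling, except sums over lists, which use library totals only. The 3 libraries of a group are given in ascending order, and errors of changes are standard errors (SE) from edgeR. A call is an adjusted p under 0.05 in the quasi-likelihood test of edgeR, adjusted by Benjamini-Hochberg over the 11967 genes. Nr3c1 itself ranged from 15.2 to 22.1 CPM in the 6 WT libraries and from 5.49 to 8.46 CPM in the 6 cKO libraries. The cKO level was 45.4% of WT in Ctrl and 31.7% of WT in Dex cultures, and no cKO library reached a WT library. The deleted part of the gene is not named in the labels, so reads from undeleted cells and reads from the rest of a deleted gene cannot be told apart. The CD8 genes were abundant in all libraries, with 4862 to 7849 counts of Cd8a. Cd4 had 0 to 16 counts, and Pax5, Lyz2 and Ncr1 had 0. In all 12 libraries 2 of 8 B cell, 3 of 13 myeloid and 4 of 9 NK cell markers had 0 counts. Other markers of these lists were detected, such as the B cell marker Cd79b at 14.1 to 21.4 CPM. The myeloid markers Cd68 and Csf3r had 63 to 180 and 11 to 28 counts. Whether these reads came from other cells was not tested. The libraries held between 14221900 and 17931200 estimated counts, and Rn45s, the ribosomal RNA precursor, took 10.4% to 13.2% of them. On the third principal component, which held 8.67% of the variance, both cKO libraries numbered 6 stood apart, at 15.4 and 24.6 against -10.3 to 6.2 for the others, and the results below were also computed without them.

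Dex both raised and lowered genes in WT cells, and the median change of either set was near 0 in cKO cells. The interaction was called for 353 genes, 2.95% of those tested. Of these, 188 (1.57% of all genes) had the higher change in WT cells and 165 (1.38%) the lower, and 71 and 29 of them differed at least 2-fold between the genotypes. Over the 188 genes the median change was 0.79 in WT cells and -0.01 in cKO cells. Over the 165 genes it was -0.48 in WT cells and 0.05 in cKO cells, against 0.01 and 0.00 over all genes tested. Of the 353 genes, 346 were also among the 1129 called with Dex in WT cells (9.43%), which is a description only, since both comparisons use the same WT libraries. For 325 of these 346 the 95% interval of the cKO change held 0, and for 327 it did not reach a 2-fold change in either direction. The interaction test uses the cKO libraries and favours genes whose cKO change departs from their WT change. The cKO values of the called genes are therefore a description only. The count of 353 moved to 235 without WT Ctrl replicate 2, to 224 without WT Dex replicate 3 and to 395 without both cKO libraries numbered 6.

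**Figure D1:**
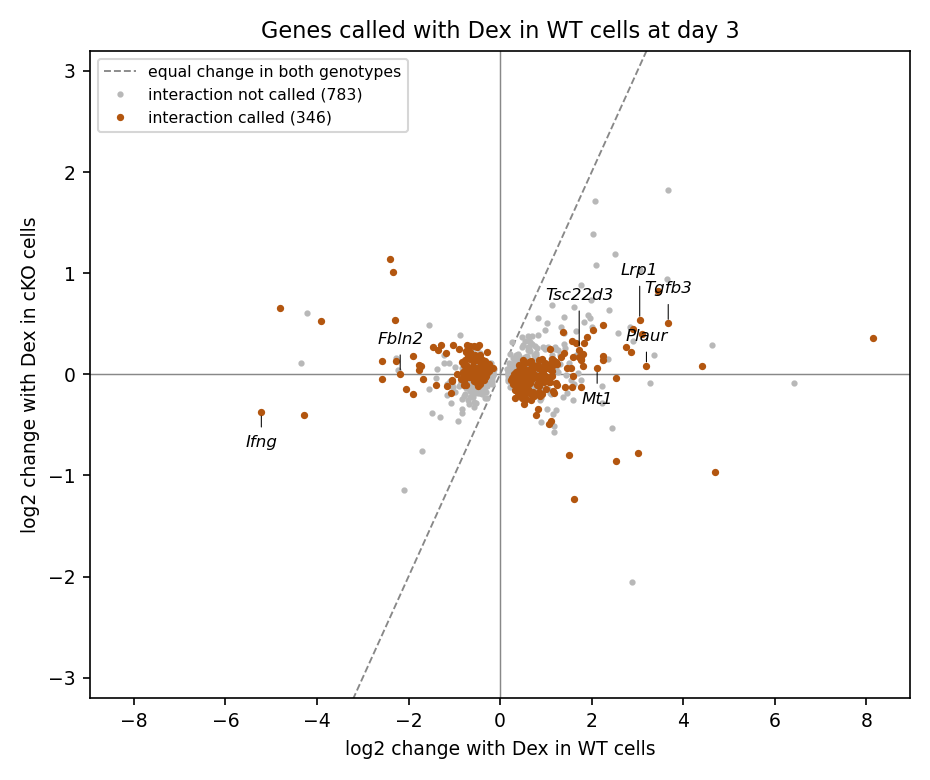
Log2 change with Dex in cKO cells (vertical axis) against that in WT cells (horizontal axis) for the 1129 genes called with Dex in WT cells. Orange points are the 346 genes whose interaction was also called, grey points the other 783, and the dashed line marks equal change; the points lie along the horizontal axis and not along the dashed line.

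Of the 783 WT calls whose interaction was not called, 647 had an unadjusted interaction p under 0.05. Their median change was 0.48 in WT and 0.03 in cKO cells for the 407 genes that rose, and -0.33 and -0.01 for the 376 that fell. In 782 of the 783 the cKO change was smaller than the WT change or ran against it, which the choice of genes by their WT change favours. These genes are therefore not shown to respond without the receptor. Simulated data held known changes in WT Dex only, with the spread of the fit. There the interaction test recovered 43.3% of genes changed 1.5-fold, 68.7% of genes changed 2-fold and 95.5% of genes changed 4-fold. Of its calls there 4.17% were false. In the data, 19 of the 40 genes that rose by 2 or more on the log2 scale in WT cells (47.5%) had an interaction call. The simulated shares are therefore not those of these data.

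Among the classic glucocorticoid targets the interaction was higher for 7 of 20 measured genes and lower for 0, where it was higher for 1.57% and lower for 1.38% of all genes. The median interaction of the list was 0.56, against 0.00 over all genes. Tsc22d3 encodes the glucocorticoid-induced leucine zipper. It stood at 54.7, 55.9 and 67.1 CPM in WT Ctrl, at 176, 203 and 210 CPM in WT Dex, at 51.2, 58.8 and 60.8 CPM in cKO Ctrl and at 57.1, 67.1 and 77.6 CPM in cKO Dex. The 3 WT Dex libraries were above the other 9, and the cKO groups overlapped. The interaction was 1.49 ± 0.15 (adjusted p = 1.21e-05 in edgeR). Fkbp5, a co-chaperone that restrains the receptor, stood at 18.9, 22.3 and 23.6 CPM in WT Ctrl, 44.6, 44.8 and 48.4 CPM in WT Dex, 19.9, 21.8 and 23.2 CPM in cKO Ctrl and 23.5, 26.3 and 27.3 CPM in cKO Dex. Here the cKO Dex libraries lay just above the cKO Ctrl libraries and far below WT Dex, and the interaction was 0.84 ± 0.14 (adjusted p = 0.00252 in edgeR).

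The metallothioneins Mt1 and Mt2, small metal-binding proteins, were the strongest responders of this list. Mt1 stood at 21.6, 23.3 and 27 CPM in WT Ctrl, 100, 105 and 107 CPM in WT Dex, 21.8, 23.2 and 34.2 CPM in cKO Ctrl and 24.8, 26.7 and 31.1 CPM in cKO Dex. The cKO groups overlapped fully, and the interaction was 2.06 ± 0.19 (adjusted p = 4.92e-06 in edgeR). For Mt2 it was 1.59 ± 0.34 (adjusted p = 0.0131 in edgeR, 0.0768 in limma on log2 of FPKM plus 1 without a filter). The other 3 called targets were Il7r, the interleukin 7 receptor (0.84 ± 0.11), Pik3ip1, an inhibitor of PI3 kinase (1.07 ± 0.17), and Ddit4, an inhibitor of mTORC1 (0.91 ± 0.15). The 13 targets without an interaction call include Dusp1, a MAP kinase phosphatase (0.19 ± 0.14), and Klf9, a zinc finger factor (1.06 ± 0.52). Of the 17 genes of the receptor's own machinery, such as chaperones, corepressors and Nr3c1, 0 had an interaction call in edgeR. Of them, 4 had an unadjusted p under 0.05, and DESeq2 called 2 and limma on log2 of FPKM plus 1 called 1. In edgeR 2.95% of all genes were called, so 0 of 17 is near the share over all genes.

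Promoters of 3 genes that rose with Dex in WT cells are shown because the searched motifs lie in them. The 250 bases before the annotated start of each gene were taken from RefSeq (build GRCm38.p6, which is not the mm9 build the submitters name), plus strand, with the matched motif in capitals. Mt1 (chr8:94178839-94179088) holds GNACANNNTGTNC, the palindrome of the glucocorticoid response element. Mt2 (chr8:94172368-94172617) and Plaur (chr7:24462233-24462482) hold TGANTCA, the AP-1 motif.
Mt1: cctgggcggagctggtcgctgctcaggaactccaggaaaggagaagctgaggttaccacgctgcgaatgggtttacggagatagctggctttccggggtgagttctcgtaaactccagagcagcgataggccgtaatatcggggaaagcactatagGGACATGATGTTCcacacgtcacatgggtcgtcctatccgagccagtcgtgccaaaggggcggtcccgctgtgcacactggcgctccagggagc
Mt2: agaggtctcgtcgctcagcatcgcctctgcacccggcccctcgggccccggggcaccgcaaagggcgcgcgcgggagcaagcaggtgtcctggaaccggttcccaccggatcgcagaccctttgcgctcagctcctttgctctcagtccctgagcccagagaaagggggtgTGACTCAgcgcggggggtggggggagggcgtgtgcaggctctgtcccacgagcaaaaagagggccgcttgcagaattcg
Plaur: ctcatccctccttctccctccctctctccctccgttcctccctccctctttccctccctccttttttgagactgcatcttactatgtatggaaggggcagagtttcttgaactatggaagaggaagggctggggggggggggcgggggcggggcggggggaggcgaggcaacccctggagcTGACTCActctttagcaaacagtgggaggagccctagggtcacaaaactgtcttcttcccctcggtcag

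Each of these motifs reads the same on both strands and the pair do not overlap in these windows. The motif GNACANNNTGTNC was in 25 of 8898 matched promoters of tested genes (0.281%), in 1 of 134 promoters of genes with a higher interaction, that of Mt1, and in 0 of 115 with a lower one. The motif TGANTCA was in 473 of 8898 promoters (5.32%), in 17 of 134 (12.7%) with a higher interaction and in 3 of 115 (2.61%) with a lower one. A match describes these letters in this window and is neither a measured binding site nor evidence of one.

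Among genes that rose in WT cells, the largest interactions of those with at least 10 CPM in a group were of Tgfb3 and Plaur. Plaur, the urokinase receptor, stood at 15, 15.2 and 17 CPM in WT Ctrl, 137, 144 and 153 CPM in WT Dex, 16, 17.4 and 19 CPM in cKO Ctrl and 16.2, 19.5 and 19.7 CPM in cKO Dex. The WT Dex libraries stood alone, and the interaction was 3.12 ± 0.13 (adjusted p = 2.49e-10 in edgeR). Lrp1, an endocytic receptor, stood at 3.93, 4.28 and 4.48 CPM in WT Ctrl, 30.5, 35.5 and 39.2 CPM in WT Dex, 3.62, 3.93 and 5.10 CPM in cKO Ctrl and 4.94, 5.60 and 7.71 CPM in cKO Dex. Its interaction was 2.52 ± 0.26 (adjusted p = 1.21e-05 in edgeR), and the cKO groups overlapped by 1 library. Tgfb3, which encodes a TGF-beta cytokine, stood at 0.859 ± 0.188 CPM in WT Ctrl, 11.1 ± 2.26 CPM in WT Dex, 1.94 ± 0.551 CPM in cKO Ctrl and 2.75 ± 0.529 CPM in cKO Dex (SD, n = 3), an interaction of 3.17 ± 0.40. It was the only called gene of 19 measured TGF-beta and SMAD genes, a count near the 2.95% called over all genes. Napsa, an aspartic protease (2.64 ± 0.51), Irgc1 (2.63 ± 0.47) and Ramp3, which partners the calcitonin-like receptor (2.56 ± 0.34), lay between Plaur and Lrp1. Atp2b4, a plasma membrane calcium pump (2.45 ± 0.20), Neb, which encodes nebulin (2.11 ± 0.14), Gm13546 (2.08 ± 0.25) and Mt1 came after Lrp1. Gpsm2, which orients the mitotic spindle (1.89 ± 0.23), AI480653 (1.77 ± 0.18), Ctla2a (1.74 ± 0.21), Zfp36l2, an mRNA decay factor (1.70 ± 0.17), and Kbtbd11 (1.63 ± 0.16) completed the 15 highest called interactions. Vim, which encodes vimentin, also rose in WT cells (1.11 ± 0.09). Of 27 trafficking and adhesion genes, 6 had a higher interaction and 3 a lower one, where 1.57% and 1.38% of all genes did. The homing receptor Ccr7 was among the higher (0.71 ± 0.11), and Cd44 (-0.42 ± 0.09) and the integrin gene Itga4 (-0.48 ± 0.10) were among the 3 lower.

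Among cytokine and chemokine genes the interaction was lower for 7 of 21 measured genes and higher for 0, where it was lower for 1.38% and higher for 1.57% of all genes. The median of the list was -0.78, against 0.00 over all genes, and Ifng had the lowest interaction of all called genes with at least 10 CPM in a group. Ifng, which encodes interferon gamma, stood at 208, 243 and 294 CPM in WT Ctrl, 1.59, 6.91 and 11.6 CPM in WT Dex, 199, 200 and 243 CPM in cKO Ctrl and 158, 166 and 172 CPM in cKO Dex. WT Dex lay far below all other groups, while cKO Dex lay just below cKO Ctrl with no overlap. The interaction was -4.84 ± 0.36 (adjusted p = 3.77e-07 in edgeR), and the cKO change was -0.37 with a 95% interval from -0.82 to 0.08. Lta, which encodes lymphotoxin alpha, stood at 331, 381 and 397 CPM in WT Ctrl, 161, 174 and 200 CPM in WT Dex, 344, 348 and 389 CPM in cKO Ctrl and 337, 348 and 350 CPM in cKO Dex. The WT groups were apart and the cKO groups overlapped, with an interaction of -0.99 ± 0.11 (adjusted p = 2.99e-05 in edgeR). Xcl1, a chemokine that attracts dendritic cells, stood at 198, 214 and 328 CPM in WT Ctrl, 66.3, 67.9 and 89.8 CPM in WT Dex, 120, 170 and 231 CPM in cKO Ctrl and 167, 167 and 218 CPM in cKO Dex, an interaction of -1.81 ± 0.29 (adjusted p = 0.00136 in edgeR). Every WT Dex library lay below every other library for Xcl1, and the cKO groups overlapped.

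The other 4 called cytokine genes were Ccl3 (-1.29 ± 0.24), Ltb (-0.91 ± 0.17), Tnf and Il3. Tnf, the tumour necrosis factor gene, had an interaction of -0.95 ± 0.21 (adjusted p = 0.0193 in edgeR). This call ended without WT Ctrl replicate 2 (0.0639), WT Dex replicate 1 (0.0502) or WT Dex replicate 3 (0.0674), in a fit of all 24 libraries (0.0545) and in limma on log2 of FPKM plus 1 with all genes (0.132). Il3 (-1.91 ± 0.48, adjusted p = 0.0344 in edgeR) lost its call when any 1 of 8 libraries was left out (WT Ctrl replicates 1 and 2, WT Dex replicates 1 and 3, all 3 cKO Ctrl libraries and cKO Dex replicate 6), with adjusted p up to 0.106 there. Il2, the T cell growth factor, had an interaction of -0.90 ± 0.55 and Il10 of 2.38 ± 1.07, and neither was called (adjusted p = 0.478 and 0.292 in edgeR). Among cytokine receptors and their signalling genes 5 of 33 had a higher interaction, Socs1 (0.97 ± 0.17) and Socs3 (0.91 ± 0.14), both suppressors of cytokine signalling, with Il18r1 (0.89 ± 0.16), Il2rb (0.62 ± 0.11) and Il12rb2 (0.48 ± 0.09). Il21r (-0.64 ± 0.10) and Ifnar1 (-0.37 ± 0.09) had lower ones. Over all genes 1.57% were higher and 1.38% lower.

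After Ifng, Fbln2 had the lowest called interaction among genes with at least 10 CPM in a group. Fbln2, which encodes the extracellular matrix protein fibulin 2, stood at 12.2, 13.5 and 13.7 CPM in WT Ctrl, 2.30, 3.06 and 3.32 CPM in WT Dex, 12.7, 16 and 21.5 CPM in cKO Ctrl and 14.3, 15.8 and 20.1 CPM in cKO Dex. WT Dex lay below the other 9 libraries and the cKO groups overlapped, with an interaction of -2.19 ± 0.28 (adjusted p = 1.49e-04 in edgeR). Ly6c2, a marker of activated and memory CD8+ T cells (-1.39 ± 0.18), Igsf3 (-1.59 ± 0.24), Trat1, an adaptor of the T cell receptor complex (-1.80 ± 0.27), Dgat2, which makes triglycerides (-1.15 ± 0.20), and Serpinc1, which encodes antithrombin (-1.01 ± 0.18), were also lower. The urea transporter gene Slc14a1 (-1.74 ± 0.40), the cytidine deaminase gene Apobec1 (-1.02 ± 0.23) and Rgs16, a regulator of G protein signalling (-1.04 ± 0.27), completed the 15 lowest called interactions among genes with at least 10 CPM in a group, with Ifng, Lta, Xcl1, Ccl3, Il3 and Eomes. The calls of Slc14a1 and Apobec1 ended in 5 alternatives each and that of Rgs16 in 12, in each case also without WT Dex replicate 3.

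**Figure D2:**
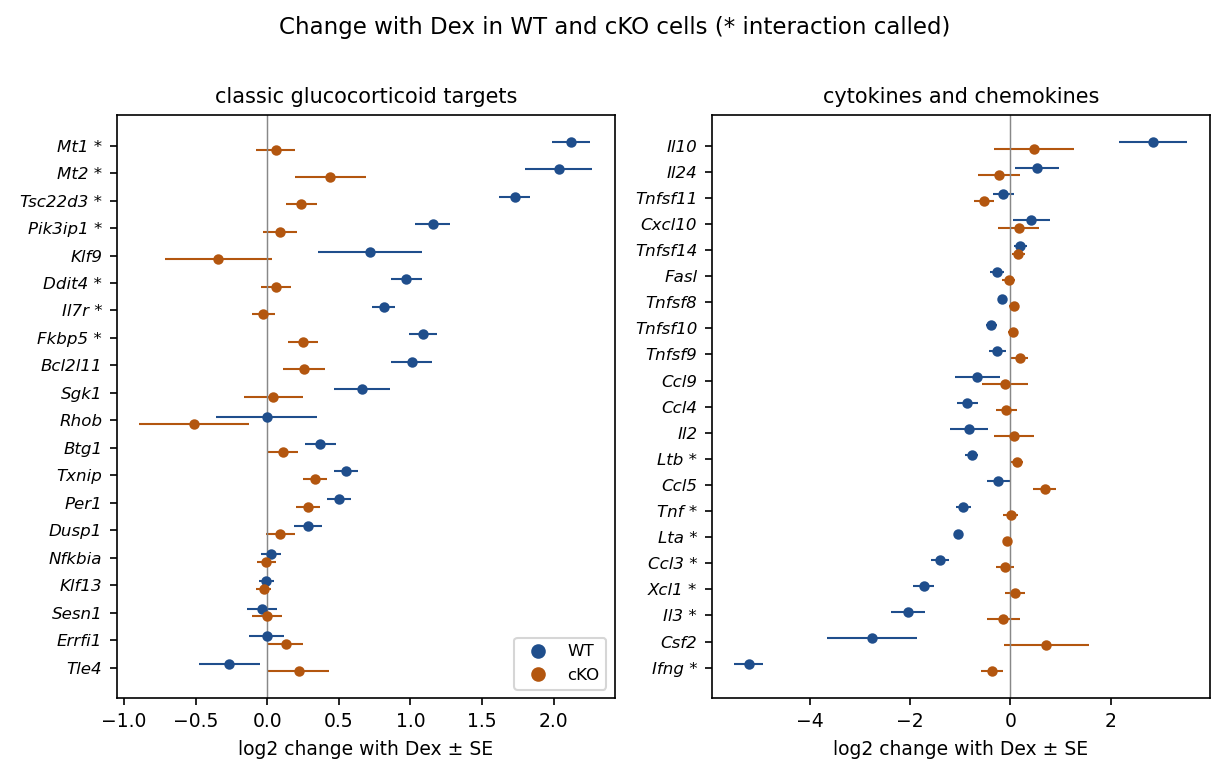
Log2 change with Dex ± SE in WT (blue) and cKO (orange) cells for the 20 measured classic glucocorticoid targets and the 21 measured cytokine and chemokine genes, ordered by interaction, with an asterisk at interaction calls. Called targets lie right of 0 in WT and near 0 in cKO cells, and called cytokines lie left of 0 in WT and near 0 in cKO cells.

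Inhibitory receptors split. Pdcd1, which encodes PD-1, stood at 59.7, 68.9 and 71.7 CPM in WT Ctrl, 133, 157 and 175 CPM in WT Dex, 48.5, 60.3 and 62.2 CPM in cKO Ctrl and 49.9, 54.3 and 57.3 CPM in cKO Dex. Ctla4, which encodes a competitor of CD28 for its ligands, stood at 222, 226 and 233 CPM in WT Ctrl, 433, 471 and 487 CPM in WT Dex, 199, 224 and 232 CPM in cKO Ctrl and 202, 211 and 231 CPM in cKO Dex. For both, the WT Dex libraries stood above the other 9 and the cKO groups overlapped. Their interactions were 1.30 ± 0.15 for Pdcd1 (adjusted p = 5.55e-05 in edgeR) and 1.05 ± 0.09 for Ctla4 (2.54e-06). They were the 2 higher of 15 measured inhibitory receptor genes, and Cd200 the 1 lower (-0.61 ± 0.10). Lag3 (-0.09 ± 0.15, 95% interval -0.40 to 0.21) and Tigit (0.01 ± 0.14, interval -0.28 to 0.31) were not called. Of 18 costimulatory receptor genes 4 were higher, Icos (0.98 ± 0.15), Slamf1 (0.44 ± 0.09), Tnfrsf18, which encodes GITR (0.31 ± 0.08), and Tnfrsf4, which encodes OX40 (0.30 ± 0.07), and 0 were lower. The call of Tnfrsf18 ended in 11 of 23 alternatives and that of Tnfrsf4 in 8. Beside the inhibitory and the costimulatory list, the shares over all genes were 1.57% higher and 1.38% lower.

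**Figure D3:**
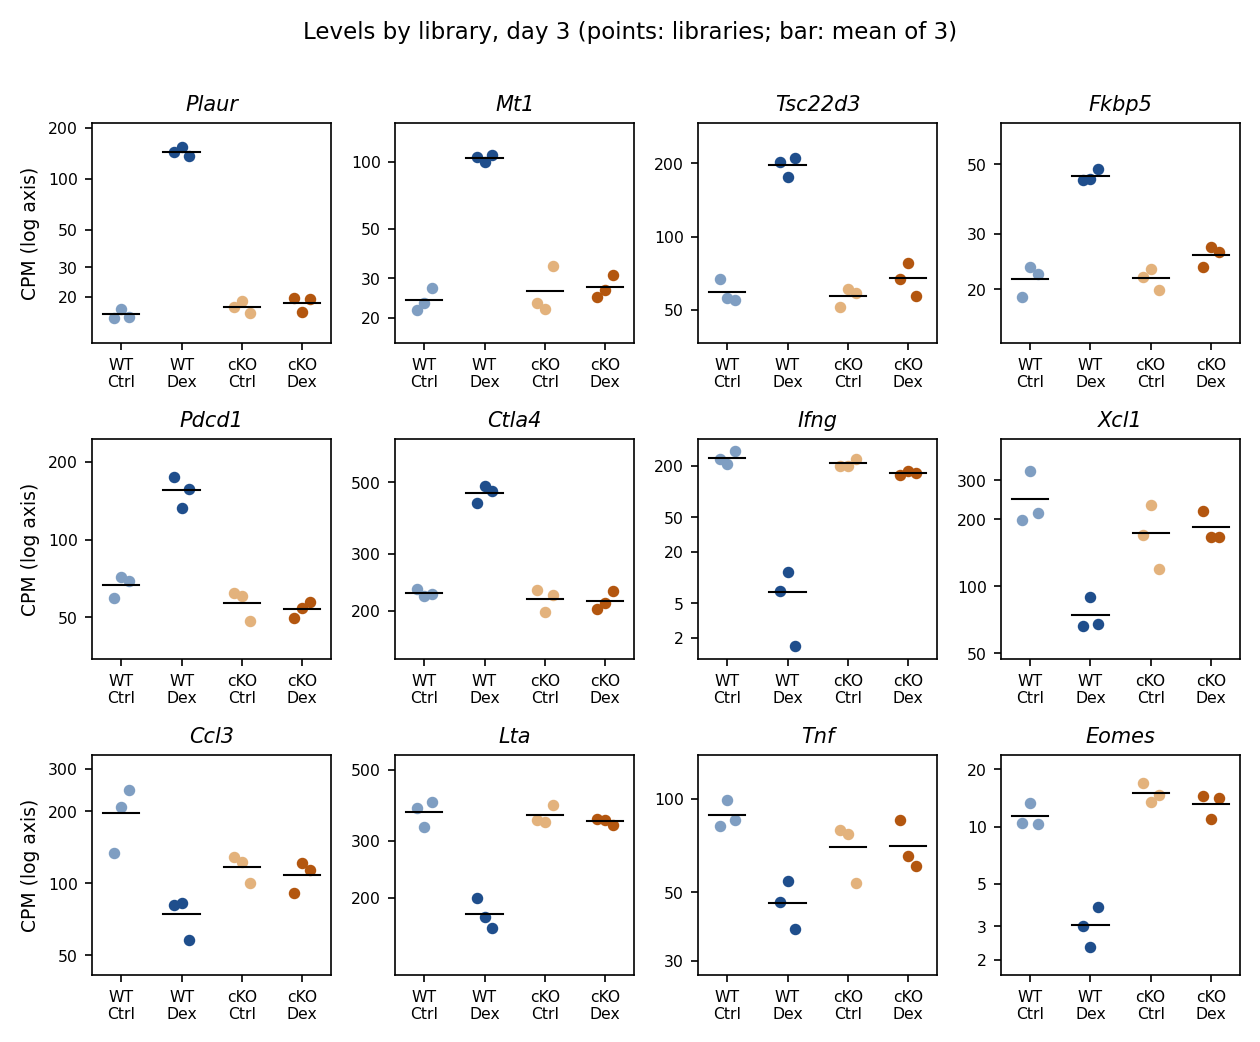
CPM on a log axis in each day 3 library (points) with the group mean of 3 (bar) for 6 genes that rose and 6 that fell with Dex in WT cells. In each panel the 3 WT Dex libraries stand apart from WT Ctrl, while cKO Dex lies close to cKO Ctrl, as for Plaur at 16.2 to 19.7 CPM against 16 to 19 CPM.

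Of 27 transcription factors of effector and exhausted cells, 4 had a higher interaction and 2 a lower one, where 1.57% and 1.38% of all genes did. Eomes, a T-box factor of effector and memory cells, stood at 10.3, 10.4 and 13.3 CPM in WT Ctrl, 2.33, 2.99 and 3.76 CPM in WT Dex, 13.4, 14.7 and 17.0 CPM in cKO Ctrl and 11.0, 14.1 and 14.4 CPM in cKO Dex. WT Dex lay below all other libraries, and the interaction was -1.71 ± 0.25 (adjusted p = 6.96e-04 in edgeR). Tox, a factor of exhausted cells, was the other lower one (-0.49 ± 0.13). Id2, an inhibitor of E proteins, stood at 30.9, 33 and 35 CPM in WT Ctrl, 104, 107 and 114 CPM in WT Dex, 26.1, 31.4 and 36.6 CPM in cKO Ctrl and 30.4, 37.2 and 38.0 CPM in cKO Dex, an interaction of 1.55 ± 0.15. The cKO groups of Id2 overlapped, far below WT Dex. Hif1a, the oxygen-regulated factor (0.77 ± 0.08), Nfil3 (0.92 ± 0.17) and Runx3 (0.41 ± 0.10) were also higher. Of 19 naive and memory genes 5 were higher, among them Igfbp4 (1.02 ± 0.16) and the survival gene Bcl2 (0.37 ± 0.08), and 2 were lower. Tcf7, which encodes the naive and memory factor TCF-1, was not called (-0.30 ± 0.10).

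Cytotoxic genes moved both ways, with 2 of 17 higher and 3 lower, where 1.57% and 1.38% of all genes were. Gzmb, which encodes granzyme B, had an interaction of -0.35 ± 0.07, Ctsw of -0.44 ± 0.11 and Nkg7 of -0.55 ± 0.14, while Serpinb9, the granzyme B inhibitor, was higher (0.57 ± 0.08). Gzma, a granzyme of a family with similar members whose reads may be shared, had 0, 0 and 1 counts in the WT Ctrl libraries, 56, 153 and 182 in WT Dex, 0, 6 and 10 in cKO Ctrl and 3, 8 and 11 in cKO Dex. Its call (adjusted p = 0.00401 in edgeR) ended without cKO Ctrl replicate 6 (0.0552) and in a fit of all 24 libraries (0.189). Perforin, encoded by Prf1, was not called (-0.28 ± 0.12). Among immediate early genes Fosl2 was higher (0.71 ± 0.14) and Jun (-0.71 ± 0.15) and Fosb lower, 3 of 26 measured. Fosb lay near the floor, at 0.124 to 0.996 CPM over the day 3 libraries. Of 17 NF-kB subunits and inhibitors 1 was called, the inhibitor Tnip1 (0.51 ± 0.13), and its call ended in 14 alternatives. Over all genes 2.95% were called, so 1 of 17 is near that share.

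In each of the metabolic, cell cycle, apoptosis, interferon and CD8 identity lists 0 to 2 genes had an interaction call, where 2.95% of all genes had one. Slc2a3, a glucose transporter, was lower (-0.79 ± 0.13) and Ndrg1, a hypoxia-induced gene, higher (0.97 ± 0.16) among 25 glycolysis and hypoxia genes. Of 28 sterol and fatty acid synthesis genes 2 were called, among them Elovl6, a fatty acid elongase (0.77 ± 0.13). Of 31 cell cycle genes 1 was called, Ccnd3, which encodes cyclin D3 (-0.31 ± 0.07), and of 23 apoptosis genes 2, Bcl2 among them. Of 32 interferon-stimulated genes 0 were called in edgeR, 7 had an unadjusted p under 0.05, and DESeq2 called 1 and limma on log2 of FPKM plus 1 called 0. Of 11 measured CD8 identity genes 1 was called, Lat, an adaptor of T cell receptor signalling (-0.42 ± 0.08). The summed level of the CD8 identity list was 2660 to 2740 CPM in WT Dex and 2900 to 3190 CPM in the other groups. This sum and the next are scaled to library totals without TMM, unlike the levels of single genes. The summed level of the CD4 T cell list was 84.9 to 98.8 CPM in WT Dex and 48.6 to 61.5 CPM elsewhere, while Cd4 itself was near 0, and of 5 measured members Ctla2a was higher and Trat1 lower (-1.80 ± 0.27). The part of these lists in the results was not tested. Of the genes named above, the calls of Bcl2, Ccnd3 and Ctsw ended in 7, 8 and 11 of 23 alternatives, in that order, and that of Fosb in 12 of the 20 that gave it a value. The calls of Cd200, Ltb, Ly6c2, Igsf3, Serpinb9, Slc2a3, Pik3ip1, Ccl3 and Gzmb ended in a fit of all 24 libraries, with adjusted p up to 0.194. Those of Ccl3, Ltb, Gzmb, Fosl2, Jun, Il2rb and Napsa ended in limma on log2 of FPKM plus 1 with all genes, with adjusted p up to 0.0918. Cd44, Itga4, Ddit4, Il18r1, Il12rb2, Ifnar1, Tox, Runx3, Nkg7 and Cd8a were named after their values were seen, to complete counts. These genes were not followed one by one through the alternatives, so whether their calls hold there is not known.

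In cKO cells no gene was called with Dex (0 of 11967, 0.0%) in edgeR, in DESeq2 or in limma on log2 of FPKM plus 1, and 399 genes (3.33%) had an unadjusted p under 0.05 in edgeR. Without the low-count filter 26 genes were called, among them Ifng and Txnip, but also genes such as Gvin1 whose cKO Ctrl and cKO Dex libraries overlap. Small changes in the WT direction were nevertheless more frequent among genes that rose in WT cells than among all genes. Of the 132 genes that rose at least 2-fold in WT cells, 91 (68.9%) had a cKO change above 0, against 50.2% of all genes, and their median cKO change was 0.14 against a median WT change of 1.57. Of these 132, 14 (10.6%) had an unadjusted p under 0.05 in the WT direction, against 1.96% of all genes, and 3 against it. In 10 of them (7.58%) every cKO Dex library lay above every cKO Ctrl library, against 4.08% of all genes. The cKO change of a gene uses no WT library, but its p uses a spread estimated over all 12 libraries. A choice by WT calls favours genes with a small estimated spread, and so low p in cKO cells as well. The genes are also not independent of each other, and no test was made over them.

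The median cKO change was 0.01 for the 210 genes with a WT rise of 0.5 to 1 on the log2 scale, 0.10 for the 92 with a rise of 1 to 2 and 0.31 for the 40 with a rise of 2 or more. The share with every cKO Dex library above every cKO Ctrl library did not climb in the same way. It was 4.76%, 8.7% and 5.0% in that order, against 4.08% of all genes. Among the genes that fell in WT cells there was no such shift of the median. Of the 50 that fell at least 2-fold, 24 (48.0%) had a cKO change below 0, against 49.8% of all genes, the median cKO change was 0.02 and 1 had an unadjusted p under 0.05 in the WT direction. In 3 of the 50 (6.0%) every cKO Dex library lay below every cKO Ctrl library, and in 2 above. By this measure they differed little from the 132 genes that rose (7.58%). A line through the origin of cKO change on WT change had a slope of 0.062 over the 590 genes called up (4.93% of all genes) and -0.020 over the 539 called down (4.5%). The slope of the genes called up ranged from -0.022 without cKO Ctrl replicate 5 to 0.120 without cKO Ctrl replicate 6. For these genes it became 0.006 in a fit with a block for each replicate number and 0.001 without the low-count filter. Restricted to the 501 of them with at least 10 CPM in a group, a choice made after seeing the data, it was 0.064 and ranged from 0.032 to 0.103 when single libraries were left out. A gene could meet this cut through WT Dex alone. Tgfb3 did so, at 9.74 to 13.7 CPM in WT Dex and 1.36 to 3.05 CPM in the cKO libraries. The cut thus does not leave out genes that are low in cKO cells.

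**Figure D4:**
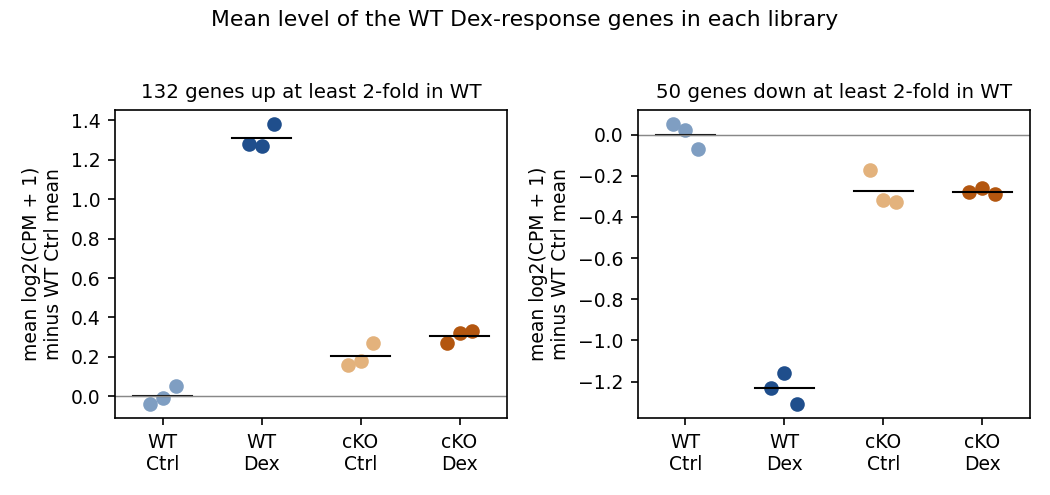
Mean log2(CPM + 1) of the 132 genes that rose and the 50 that fell at least 2-fold with Dex in WT cells, in each day 3 library, relative to the WT Ctrl mean, with the group mean as a bar. For the genes that rose, WT Dex libraries lie at 1.27 to 1.38, cKO Ctrl at 0.16 to 0.27 and cKO Dex at 0.27 to 0.33; for the genes that fell, the cKO groups overlap.

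By library, the mean level of the 132 genes relative to WT Ctrl was 1.27, 1.28 and 1.38 in WT Dex on the log2(CPM + 1) scale. It was 0.16, 0.18 and 0.27 in cKO Ctrl and 0.27, 0.32 and 0.33 in cKO Dex. The cKO groups met at 0.27 and the cKO Dex libraries lay far nearer to cKO Ctrl than to WT Dex. The offset of the cKO Ctrl libraries from 0 shares the WT Ctrl libraries that chose the genes. For the 50 genes that fell, the level was -1.31 to -1.16 in WT Dex, -0.33 to -0.17 in cKO Ctrl and -0.29 to -0.26 in cKO Dex.

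Of the 12 genes with the lowest unadjusted p in cKO cells, among those with at least 10 CPM in a group, 3 were called with Dex in WT cells, Txnip, Trim44 and AI480653. The other 9 were Gvin1, Ifit1, Smad3, Mpp7, Qk, Etv6, Wdr85, Zfp120 and Ttc9c, and none of the 12 was called in cKO cells. Choosing these 12 by their cKO p favours large cKO changes, cKO groups that do not overlap and intervals that leave out 0. Their cKO values here and in the next paragraph are therefore a description only. Txnip, an inhibitor of glucose uptake, stood at 57.5, 60.4 and 62.9 CPM in WT Ctrl, 77.9, 93.2 and 94.1 CPM in WT Dex, 57.9, 64.9 and 69.7 CPM in cKO Ctrl and 78.4, 78.6 and 85.6 CPM in cKO Dex. The groups of each genotype did not overlap, the cKO change was 0.33 (95% interval 0.16 to 0.51, unadjusted p = 9.5e-04 in edgeR across all genes) and the WT change 0.55. Per1, a clock gene, stood at 37.2, 37.3 and 39.8 CPM in WT Ctrl, 52.3, 54.8 and 55.0 CPM in WT Dex, 33.7, 35.7 and 39.4 CPM in cKO Ctrl and 40.0, 44.5 and 48.2 CPM in cKO Dex. Its groups did not overlap either, with a cKO change of 0.29 (interval 0.11 to 0.46) and a WT change of 0.50. The interaction was 0.22 ± 0.12 for both genes and was not called (adjusted p = 0.403 for Txnip and 0.400 for Per1 in edgeR), so a difference between the genotypes was not detectable for them. Trim44, a tripartite motif protein, had changes of 0.27 in WT and 0.32 in cKO cells.

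AI480653 stood at 6.75, 8.78 and 9.58 CPM in WT Ctrl, 37.9, 41.0 and 41.1 CPM in WT Dex, 8.49, 9.30 and 9.46 CPM in cKO Ctrl and 12.6, 12.7 and 12.9 CPM in cKO Dex. All cKO Dex libraries lay above all cKO Ctrl libraries and below all WT Dex libraries. Its cKO change was 0.49 (interval 0.22 to 0.75) beside a WT change of 2.26. Atp2b4 stood at 4.21, 4.32 and 5.00 CPM in WT Ctrl, 31.9, 34.0 and 35.5 CPM in WT Dex, 6.29, 6.33 and 6.37 CPM in cKO Ctrl and 7.01, 8.72 and 10.1 CPM in cKO Dex, with a cKO change of 0.45 (interval 0.15 to 0.75). The cKO change was 0.53 for Lrp1 (interval 0.14 to 0.93), 0.25 for Fkbp5 (0.04 to 0.46) and 0.24 for Tsc22d3 (0.01 to 0.47). None of these intervals held 0, but the adjusted p in cKO cells was 1.00 for each of them in edgeR. Nr3c1 transcripts remained in the cKO Dex libraries at 5.49 to 8.43 CPM, and the part of these transcripts in the small cKO changes was not tested. Among genes without a WT call, Smad3, a mediator of TGF-beta signalling, had a cKO change of -0.49 and a WT change of -0.06. The cKO and WT changes were 0.46 and -0.13 for Qk, an RNA-binding protein, -0.36 and 0.05 for Etv6, an ETS repressor, and 0.63 and 0.14 for Ifit1, an interferon-stimulated gene.

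**Figure D5:**
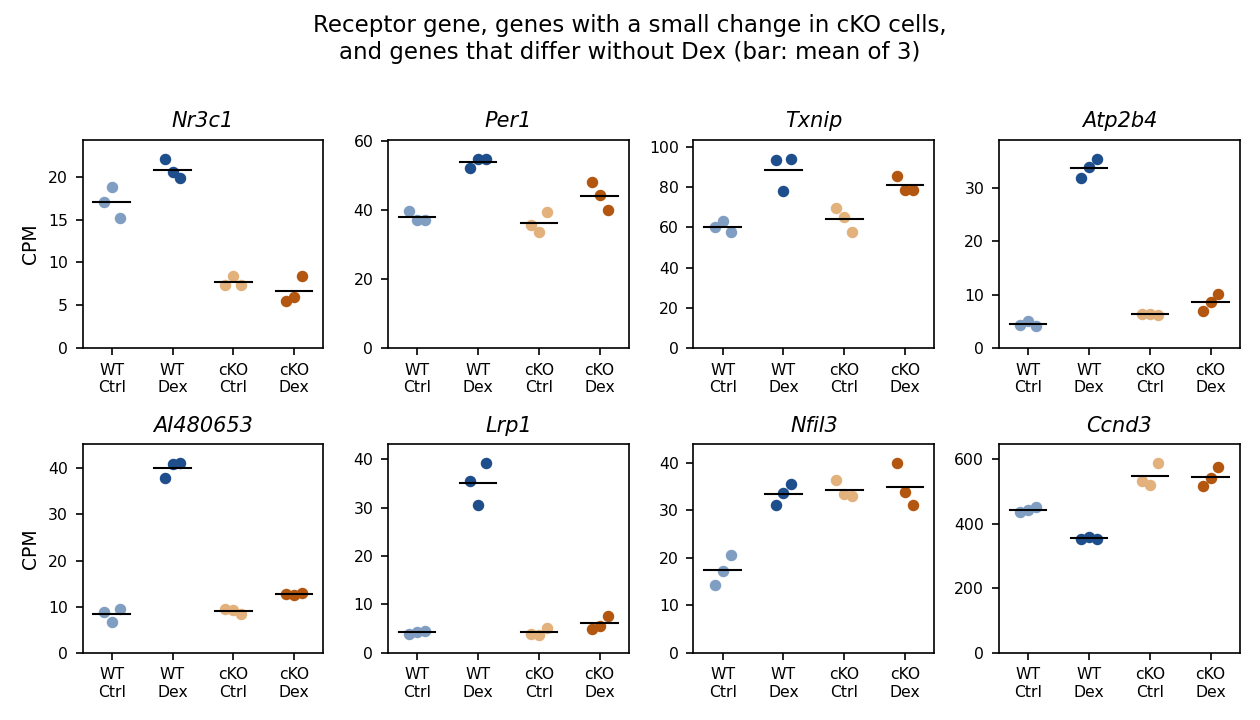
CPM in each day 3 library (points) with the group mean of 3 (bar) for Nr3c1, for 5 genes with a small change in cKO cells and for Nfil3 and Ccnd3. Txnip is at 78.4 to 85.6 CPM in cKO Dex and 57.9 to 69.7 CPM in cKO Ctrl, while Nfil3 is at 33.0 to 36.4 CPM in cKO Ctrl and at 14.3 to 20.5 CPM in WT Ctrl.

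For some genes the interaction rested in part on a difference between the genotypes without Dex. Of the 353 interaction calls, 58 (16.4%) were also called between cKO Ctrl and WT Ctrl, where 2.36% of all genes were called, and both comparisons use these 6 libraries. Nfil3, a bZIP factor of the clock and of lymphocyte development, stood at 14.3, 17.2 and 20.5 CPM in WT Ctrl, 31.1, 33.6 and 35.5 CPM in WT Dex, 33.0, 33.4 and 36.4 CPM in cKO Ctrl and 31.2, 33.8 and 39.9 CPM in cKO Dex. Both cKO groups were thus at the level that WT cells had with Dex. The difference of cKO Ctrl from WT Ctrl was 0.98 for Nfil3 (adjusted p = 3.9e-04 in edgeR). It was -0.74 for Ccl3 (adjusted p = 0.031 in edgeR), and ran against the Dex change for Ccnd3 (0.30, adjusted p = 0.006 in edgeR). Tsc22d3 (-0.06) and Fkbp5 (0.00) had no such call. The count of genes called between cKO Ctrl and WT Ctrl was 283 and depended strongly on single libraries, from 63 without WT Ctrl replicate 2 to 513 without cKO Dex replicate 6.

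The genes of the interaction were also followed in separate libraries of WT cells at day 9, which had been rested for 3 days in IL2 and restimulated for 3 days, with 10 nM Dex or without. Of the 188 genes with a higher interaction, 186 were tested at day 9, 149 (80.1%) rose and 12 fell with Dex, where 28.5% of the genes tested on both days rose. Of the 165 with a lower interaction, 161 were tested, 96 (59.6%) fell and 22 rose, where 28.1% of the genes tested on both days fell. Among WT calls without an interaction call, 252 of 403 that rose at day 3 also rose at day 9 (62.5%). Of those that fell at day 3, 193 of 372 fell at day 9 (51.9%). The day 9 changes were thus not particular to the interaction calls. Plaur changed by 5.33 on the log2 scale at day 9, Tsc22d3 by 4.43, Ifng by -6.04 and Ccl3 by -3.91. Some genes ran the other way, such as Ctsw, which rose by 1.24 at day 9 against -0.44 at day 3. No cKO libraries of day 9 were analysed here, so whether the day 9 changes require the receptor was not tested.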

How the data were processed

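RNA of the 12 day 3 libraries (and, for WT Ctrl and WT Dex, 6 of day 9) was analysed from 2 tables. The authors deposited estimated counts from RSEM, one value per gene and library, with no normalization, per the file headers. The deposited FPKM table holds the same genes after TMM scaling, per the file headers. TopHat, RSEM, DESeq and mm9 are named in the submitters' processing notes, without versions or roles. Reads were pairs of 38 nt from libraries amplified for 11 cycles by a modified SMART-Seq2 protocol, per the labels' protocols, without molecular identifiers, so counts are of amplified reads. Rn45s was kept in the totals.

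Counts were rounded and fitted with edgeR 4.0.16 in R 4.3.3 (TMM, filterByExpr by group with a minimum count of 10 and minimum total of 15, prior count 0.125, 1 mean per group over the 12 libraries, two-sided quasi-likelihood F-test), and the interaction was a contrast of the 4 means. Benjamini-Hochberg adjustment ran over the 11967 genes tested (12320 at day 9). Simulated data with known changes in WT Dex only were drawn with the spread of the fit, and 11830 genes passed the filter. Alternatives were DESeq2 1.42.0, its size factors in edgeR, library totals only, Rn45s left out, no low-count filter, limma 3.58.1 on log2 of FPKM plus 1 (genes reaching a group mean of 1 FPKM, or all genes) or plus 0.1, a fit that included all 24 libraries, a replicate block, and leaving out each library, where a group of 2 shared its spread with the other groups. Leaving out both cKO libraries numbered 6 and limiting the slope to genes of 10 CPM or more were added after seeing the data. Motifs were searched in 250 bases of RefSeq promoters, matched by symbol for 8898 tested genes. Plots were made in Python 3.11.15 with matplotlib 3.10.9.

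The comparison, the 26 gene lists and the 28 fixed genes were chosen with earlier results of these data known. Named genes were the fixed genes, the 15 largest interactions in each direction among calls that reached a group mean of 10 CPM, up to 4 lowest-p members per list, the 12 genes of lowest p in cKO cells, the 10 with the largest share of a WT change of 0.5 or more seen in cKO cells, and up to 10 interaction calls without a WT call. Some genes that these rules name are not reported here.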

Additional observations from a re-analysis of the deposited data

Results flagged for a closer look

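The response to Dex differed between WT and cKO cells, by the test of the difference itself in edgeR, in 353 genes, which the report describes. Of these, 7 genes had no call with Dex in WT cells, so that their interaction drew on a cKO change in the other direction, and in cKO cells none of them was called. Gm4724 had an interaction of 14.46 on the fitted log2 scale, which is no bound, since the gene had 0 counts in all cKO Dex libraries, 151, 0 and 302 counts in cKO Ctrl replicates 4, 5 and 6 and 0 or 1 in WT Ctrl. Its call ended in 5 alternatives, the 3 limma fits on FPKM among them. For Ttc9c the interaction was -0.33, with 90.7 to 91.5 CPM in cKO Ctrl and 102 to 109 CPM in cKO Dex. Adap1 had -1.03, with a WT change of -0.56 and a cKO change of 0.47. Zdhhc1 had 1.56, Fam19a3 1.83 and Trp53rk 1.25, all below 6 CPM, and Gm5506 had 0.61. The calls of Ttc9c, Adap1, Zdhhc1, Fam19a3, Trp53rk and Gm5506 each ended in 9 to 18 alternatives. No group had more than 3 libraries, so single libraries could not be tested as outliers.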

How the results depend on the processing

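At 3 libraries per group and these total counts, the simulated recovery of interactions was 43.3% for 1.5-fold and 95.5% for 4-fold changes. Only WT Dex values were changed in the simulation, and other depths were not simulated. In the data, 19 of the 40 genes that rose by 2 or more on the log2 scale in WT cells (47.5%) had an interaction call. Among the 143 named genes no called change turned in direction in the alternatives run. The 353 interaction calls became 765 without a low-count filter, 560 with DESeq2, 213 with all 24 libraries in 1 fit and 185 with limma on FPKM plus 1 without a filter, and ranged from 224 to 479 when single libraries were left out. Library totals only gave 173 higher and 214 lower. Of 353, 343 were shared with DESeq2 and 284 with limma on FPKM plus 1. In cKO cells the 0 calls became 26 without a filter and 1 (Gm4724) with the replicate block and without cKO Ctrl replicate 5, so 0 to 1 when single libraries were left out. In WT cells 1129 calls ranged from 691 to 1345 over single libraries left out. Between cKO Ctrl and WT Ctrl 283 calls became 793 without a filter, 540 with DESeq2, 101 with limma on FPKM plus 1 without a filter, 129 with all 24 libraries, 455 without both cKO libraries numbered 6, and 63 to 513 over single libraries. The day 9 count of 6850 ranged from 6115 to 6357. The slope of 0.062 for genes called up became 0.001 without a filter, 0.045 with limma on FPKM plus 1, 0.090 with all 24 libraries, 0.006 with the replicate block, 0.108 without both cKO libraries numbered 6, and -0.022 to 0.120 over single libraries. The slope of -0.020 for genes called down became 0.029, 0.020 and 0.017 with limma on FPKM plus 1, plus 0.1 and plus 1 without a filter, -0.047 with all 24 libraries, and -0.029 to 0.082 over single libraries. The cause of these moves was not tested. Same-numbered libraries correlated at r from -0.036 to 0.10, positive in the 3 cKO pairs and negative in the 3 WT pairs. Not every library correlated best with its own number. Since not every r exceeded 0.1, the main fit did not take the numbers as pairs. This bar is not a test, and the 2 cKO libraries numbered 6 had the highest r and stood apart together on the third principal component. Whether same-numbered libraries share an origin was not tested. The replicate block gave 526 interaction and 1347 WT calls. Of 78 named interaction calls, 43 were kept in every alternative and 35 ended in at least 1. Some alternatives were not run for day 9, whose libraries enter only its own fits and the fit of all 24.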
